A study of Mus musculus with 20 samples.

Results

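Embryos depleted of maternal G9a were compared by whether they themselves carried a functional Ehmt2 copy. G9a is the histone methyltransferase encoded by Ehmt2. The 10 embryos labelled as maternal knockout (KO) for Ehmt2, of 19 single embryos in all, were split by the zygotic genotype in their labels. The genotype -/-, with no functional copy, was given to 5 embryos (Ehmt2M/Z, here M/Z, embryos 1, 4, 5, 7 and 9). The genotype +/-, with 1 functional copy, was given to the other 5 (Ehmt2M/+, here M/+, embryos 2, 3, 6, 8 and 10). The 9 embryos labelled as maternal wild type were the reference, 3 of them Cntr +/- and 6 Cntr +/+. No measured value was used to choose the members.

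All embryos were morphologically normal 8-cell (8C) embryos of mixed background, collected at embryonic day (E) 2.5 from natural matings. KO mothers were Ehmt2F/- and control mothers Ehmt2F/+, and both carried Zp3-Cre, in which a promoter of the growing oocyte drives the recombinase. Control embryos therefore also came from oocytes that had expressed Cre. The functional copy of M/+ embryos was inherited from the father. The comparison asks whether that copy moves single genes, or the whole transcriptome, back towards the controls at this stage, and how large an effect could have been missed.

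G9a works as a heterodimer with GLP, the product of Ehmt1, and adds methyl groups to lysine 9 of histone H3, mostly the dimethyl mark H3K9me2 found in repressed euchromatin. The oocyte loads the early embryo with G9a mRNA and protein, and the embryo's own genome takes over transcription after fertilisation. An embryo from a mutant oocyte can make the enzyme only from a functional zygotic copy.

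Total counts per embryo ranged from 10435051 to 30602434 in M/Z, from 8231646 to 24267044 in M/+ and from 12985149 to 30053248 in controls. Levels are given as CPM, the counts of a gene scaled by the embryo's normalized total. A count of 3, the limit that a count of 0 allows, was worth 0.098 to 0.364 CPM in the 10 KO embryos, for counting error only. The genotypes did not differ detectably in depth, with a log2 difference of 0.28 and p = 0.468 by a two-sided exact permutation test. The share of mitochondrial counts, 10.5% to 20.2% in M/Z and 8.03% to 21.7% in M/+, gave p = 0.389 by the same exact test. The split of the 10 embryos into 5 and 5 has a finite number of arrangements, so the smallest p possible is 0.00794. Each sample is a separate embryo, but litters are not given in the labels.

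The embryos differed in 2 further ways that the genotypes do not describe. Ovgp1, which encodes the secreted glycoprotein of the oviduct epithelium, was abundant in 4 of the 10 KO embryos. Ovgp1 was at 613, 365, 76.9, 13.8 and 64.4 CPM in M/Z embryos 1, 4, 5, 7 and 9, and at 855, 2799, 129, 23.2 and 9.60 CPM in M/+ embryos 2, 3, 6, 8 and 10. The sum of the 5 markers (Ovgp1, Pax8, Wt1, Foxj1 and Muc1), none of them at 0 in all 10 embryos, ranged from 14.0 to 618 CPM in M/Z, from 9.68 to 2870 CPM in M/+ and from 0.0904 to 388 CPM in controls, where the median was 2.56 CPM. Ovgp1 made up nearly all of this sum in the 4 embryos. Of the other markers, Foxj1 was at most 3.27 CPM in the KO embryos, and Pax8 was at 27.4 CPM in M/+ embryo 3 and at most 2.5 CPM in the other 9. Embryos with a sum above 300 CPM are called Ovgp1-rich here. M/+ embryo 3 also held the most RNA of cumulus and granulosa markers, 81.8 CPM in sum, including 30.7 CPM of the steroid-producing enzyme Cyp11a1, against at most 10.1 CPM in M/Z and 7.37 CPM in controls. Of these 12 markers, 5 were at 0 in all 10 KO embryos. Blood markers summed to at most 6.40 CPM in M/Z and 11.8 CPM in M/+, and sperm markers to at most 1.00 and 1.23 CPM.

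The second difference was sex. Y-linked genes summed to 97.7 to 244 CPM in all 5 M/+ embryos and to 91.7 to 183 CPM in M/Z embryos 1, 5 and 7. The sum was 2.48 CPM in M/Z embryo 4 and 0.67 CPM in M/Z embryo 9, which are called female here. Xist, the RNA of the inactive X chromosome, was highest in these among the KO embryos, at 56.1 and 10.6 CPM, and was at most 7.75 CPM in the other 8. Values with sex in the fit, or without the Ovgp1-rich embryos, are given beside results that move with them.

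Ehmt2 RNA was lower in M/Z than in M/+ on average, but the ranges overlapped. Ehmt2 (ENSMUSG00000013787, chromosome 17, 34898469 to 34914052 on GRCm38) was measured at 58.7, 75.1, 82.4, 84.8 and 115 CPM in M/Z embryos 1, 4, 5, 7 and 9. In M/+ embryos 2, 3, 6, 8 and 10 it was at 159, 148, 116, 105 and 77.3 CPM. M/Z embryo 9 stood above M/+ embryos 8 and 10, and M/+ embryo 10 stood below 3 M/Z embryos. The means were 83.1 ± 20.4 CPM (SD, n = 5) and 121 ± 33 CPM (SD, n = 5), against 143 ± 10.6 CPM (SD, n = 3) in Cntr +/- and 141 ± 75.3 CPM (SD, n = 6) in Cntr +/+ embryos. The difference M/Z minus M/+ was -0.52 on the log2(CPM + 1) scale, with a 95% interval of -1.07 to 0.09 and p = 0.0794 by the two-sided exact permutation test, or 0.278 after Benjamini-Hochberg (BH) adjustment over 7 permutation tests, those of Ehmt2 and of 6 profile measures described further on. Left out in turn, M/Z embryo 9 gave -0.65 with exact p = 0.0397 and M/+ embryo 10 gave -0.67 with exact p = 0.0238. Without the 4 Ovgp1-rich embryos the difference was -0.08 with exact p = 0.9, where 3 embryos against 3 cannot go below 0.1. The counts are sums over whole genes, so they do not separate reads of the deleted exons from the rest of the transcript, and a mutant embryo can have Ehmt2 counts without functional mRNA.

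**Figure D1:**
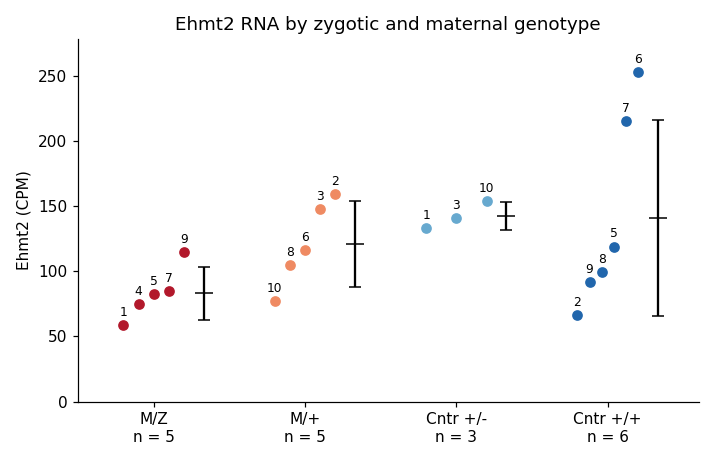
Ehmt2 level in CPM for each of the 19 embryos (points), with the mean and SD of each of the 4 genotype groups. M/Z embryos lie between 58.7 and 115 CPM and M/+ embryos between 77.3 and 159 CPM, so the groups overlap.

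The partner gene Ehmt1 was at 60.8 to 118 CPM in M/Z and 32.3 to 126 CPM in M/+, with a log2 difference of 0.32 ± 0.37 (SE) and an unadjusted p of 0.408 by edgeR. None of the 8 genes of the G9a and GLP complex, which include the zinc finger proteins Wiz and Zfp644, had an unadjusted p under 0.05. Wiz was at 33.9 to 112 CPM in M/Z and 34.8 to 92.4 CPM in M/+, so the ranges overlapped almost fully. The 8 other H3K9 methyltransferases tested, the 9 H3K9 demethylases tested and their medians, -0.27 and -0.10 on the log2 scale, likewise held no gene under 0.05. Of the 12 H3K9 readers and DNA methyltransferases, Atrx, an X-linked chromatin remodeller, was higher in M/Z by 0.67 ± 0.27 (SE, log2) with an unadjusted p of 0.0252 and an adjusted p of 0.9997 by edgeR. With sex in the fit the Atrx difference was 0.45 with an unadjusted p of 0.158.

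No gene differed between M/Z and M/+ by edgeR's quasi-likelihood test with BH adjustment at 0.05. Of 12195 genes tested, 0 were called (0.0%), and the smallest adjusted p was 0.9997. An unadjusted p under 0.05 was reached by 270 genes (2.21%), 93 of them higher in M/Z (0.763%) and 177 lower (1.45%). Unadjusted p was under 0.5 for 44.0% of genes, under 0.25 for 18.1% and under 0.1 for 5.32%. Each share is below its threshold, so the edgeR p-values ran larger than evenly spread ones would. DESeq2 called 15 of the 14485 genes to which it gave an adjusted p (0.104%), 5 higher and 10 lower in M/Z, and called 3 when restricted to the genes edgeR had tested. The 5 M/Z values lay entirely above the 5 M/+ values, or entirely below, in 68 genes (0.558%), 26 above and 42 below, as CPM. The median log2 difference over all genes was -0.04 and the median absolute difference 0.31, and 1689 genes (13.9%) differed by at least 1 on the log2 scale without being called. The typical coefficient of variation between embryos beyond counting error was 0.781.

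**Figure D2:**
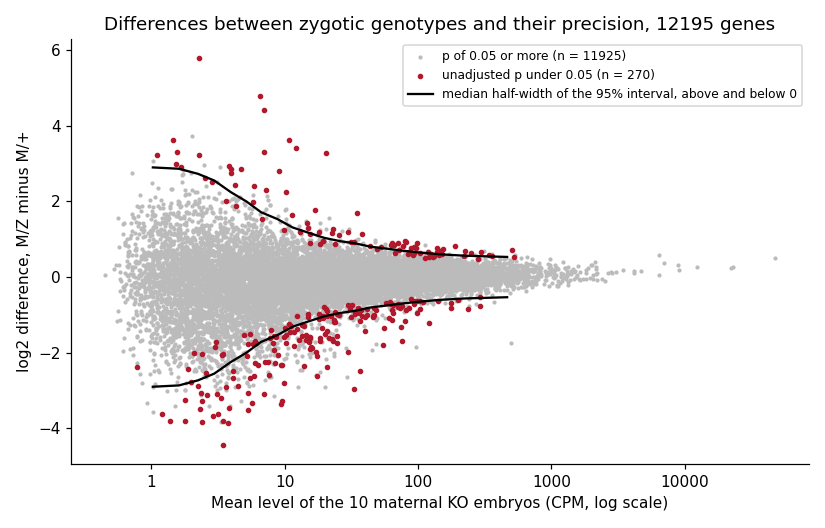
Log2 difference M/Z minus M/+ of each tested gene (grey, or red for the 270 with an unadjusted edgeR p under 0.05) against its mean level in CPM on a log axis, with black lines at the median half-width of the 95% interval above and below 0. The lines narrow from low to high levels, and 0 genes passed the adjusted threshold.

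Klf10, a transcription factor induced by TGF-beta, had the smallest p of the genes lower in M/Z with a mean of at least 5 CPM. Its level was 6.95, 7.78, 7.44, 4.43 and 11 CPM in M/Z embryos 1, 4, 5, 7 and 9, and 53.4, 18.3, 9.99, 45.3 and 164 CPM in M/+ embryos 2, 3, 6, 8 and 10. Only M/Z embryo 9 and M/+ embryo 6 crossed. The log2 difference was -2.95 ± 0.64 (SE), with an unadjusted p of 0.000405 and an adjusted p of 0.9997 by edgeR, and an adjusted p of 0.00377 by DESeq2. Controls ranged from 15.4 to 107 CPM, all above the M/Z embryos. In the fit of all 19 embryos, M/Z was below controls by a log2 change of -2.78 with an adjusted p of 0.00889 by edgeR, and M/+ differed from the same controls by 0.14 with an adjusted p of 0.941 by edgeR.

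Rdh14, a retinol dehydrogenase, went the other way. It was at 4.08, 2.76, 4.03, 4.58 and 6.92 CPM in the M/Z embryos and at 0, 0.121, 0.118, 0.131 and 0 CPM in the M/+ embryos, where no embryo held more than 3 counts. All M/Z embryos were above all M/+ embryos. The edgeR difference was 5.78 ± 1.19 (SE, log2) with an unadjusted p of 0.000236 and an adjusted p of 0.9997, and the DESeq2 adjusted p was 3.75e-08. Control levels ran from 0 to 19.7 CPM. Against the controls the M/+ embryos were the lower group, with an adjusted p of 0.0286 by edgeR, and M/Z had an adjusted p of 0.877.

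Mut, the mitochondrial methylmalonyl-CoA mutase, was also separated between the genotypes. Levels were 15.8, 21.0, 8.37, 18.1 and 21.0 CPM in M/Z and 1.84, 4.36, 4.02, 5.00 and 2.46 CPM in M/+. The log2 difference was 2.25 ± 0.53 (SE), with an unadjusted p of 0.000774 and an adjusted p of 0.9997 by edgeR, and 0.000191 by DESeq2. Controls ran from 0.0904 to 18.4 CPM, 7 of them below every M/Z embryo, 2 within the M/Z range and 1 within the M/+ range. Neither genotype differed from the controls by edgeR, with adjusted p-values of 0.287 for M/Z and 0.676 for M/+. Nags, which makes the activator of the urea cycle, was at 0.371, 2.52, 2.02, 4.04 and 3.89 CPM in M/Z and at 0 in M/+ except for 0.0820 CPM (1 count) in embryo 10. It was too sparse for the edgeR filter and had an adjusted p of 0.00041 by DESeq2. Rdh14, Mut and Nags were the 3 genes that DESeq2 also called with each of the 10 embryos left out.

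Of all 15 DESeq2 calls, Rdh14 and Nags included, 11 had 10 or more counts in at most 1 embryo of one genotype, and 11 had a count of 0 in at least 1 control. Mut, Klf10 and Esyt3 had 10 or more counts in all 10 embryos. Slc4a5, a bicarbonate transporter, was at 2.46 and 19.99 CPM in M/+ embryos 2 and 3 and at 0 in the other 8 KO embryos. Csf2rb, the shared chain of several cytokine receptors, was at 2.24 and 14.4 CPM in those embryos and at 0 in the other 8. M/+ embryos 2 and 3 are the ones with the most Ovgp1, and Csf2rb has a near-identical neighbour whose reads the counting may share with it. Mpv17l was at 3.69, 6.79 and 3.90 CPM in M/+ embryos 2, 3 and 6, at 0.0870 and 0.328 CPM in M/+ embryos 8 and 10, and at most 0.0304 CPM in M/Z. With an embryo left out, DESeq2 called 11 to 33 genes.

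The remaining genes of smallest p with a mean of at least 5 CPM had edgeR adjusted p-values of 0.9997. Higher in M/Z were Wdr4, a subunit of a tRNA methyltransferase, by 0.62 ± 0.20 (SE, log2, unadjusted p = 0.00748) and Glod4, by 0.89 ± 0.30 (SE, log2, unadjusted p = 0.0105). Wdr4 was at 160.2 to 221 CPM in M/Z and 104 to 128 CPM in M/+, with no overlap. Its control levels ran from 113 to 228 CPM, 3 within the M/Z range and 2 within the M/+ range. The other leading genes on this side, Gk (glycerol kinase), Bex1 and Cul4b (a ubiquitin ligase scaffold), lie on the X chromosome. Gk was at 40.7 to 68.4 CPM in M/Z and 1.33 to 28.0 CPM in M/+ without overlap, and male M/Z embryos 1, 5 and 7 were at 50.6, 68.4 and 50.0 CPM. Controls were at 1.175 to 32.02 CPM for Gk, all 9 below every M/Z embryo and 7 within the M/+ range. Against controls, the edgeR adjusted p of Gk was 0.101 in M/Z and 0.99 in M/+. Bex1 ranged from 0.155 to 46.1 CPM in M/Z and from 0.574 to 2.79 CPM in M/+, and M/Z embryo 5 was below every M/+ embryo. With sex in the fit the Bex1 difference moved from 3.63 to 1.64 (unadjusted p = 0.0995), that of Cul4b from 1.14 to 0.78 (unadjusted p = 0.0853), and that of Gk from 1.69 to 1.76 (unadjusted p = 0.0172).

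Lower in M/Z were Ly6e, a membrane-anchored protein, at 4.09 to 23.9 CPM against 6.35 to 101 CPM, and Socs2, a suppressor of cytokine signalling, at 2.29 to 10.3 CPM against 4.26 to 86.1 CPM. Esyt3, an extended synaptotagmin, was at 4.96 to 11.2 CPM in M/Z and 11.6 to 51.1 CPM in M/+, just separated. The poly(A) polymerase gene Tent4a was at 40.6 to 55.2 CPM in M/Z and spread from 38.5 to 163 CPM in M/+. These differences were between -2.48 (Ly6e) and -1.17 (Tent4a) on the log2 scale, and DESeq2 called only Esyt3 among these 4, with an adjusted p of 0.0459.

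**Figure D3:**
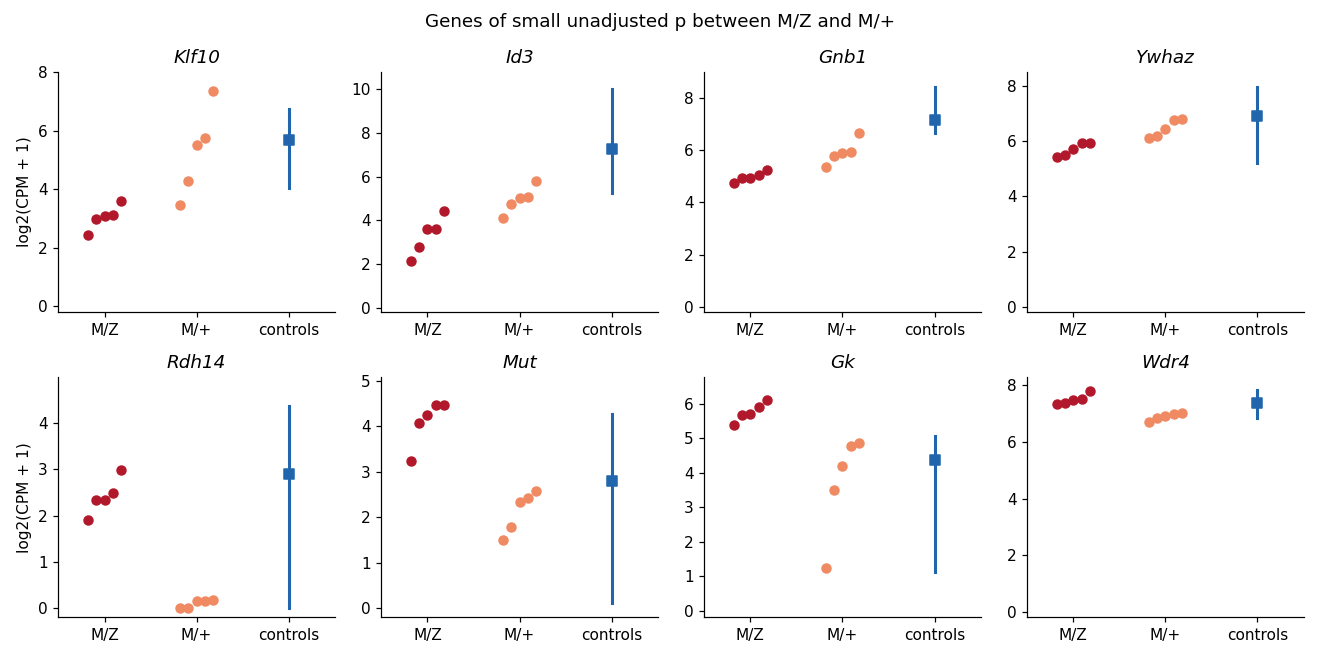
Levels as log2(CPM + 1) of 8 genes of small unadjusted p, with a point for each M/Z and M/+ embryo and, for controls, the median (square) and the range from lowest to highest (line). The M/Z and M/+ points cross for Klf10 and Id3 and do not overlap for the other 6 genes, and only for Gnb1 do the controls lie apart from both.

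X-linked genes leaned towards M/Z, the group with 2 female embryos. Of 346 X-linked genes tested, 18 (5.2%) had an unadjusted p under 0.05 and were higher in M/Z, and 0 were lower. Over all genes tested, 0.763% were higher and 1.45% lower at that limit. The X-linked median log2 difference was 0.24, against -0.04 for autosomal genes. With a term for sex in the fit, called from the Y-linked sum at 10 CPM, the X-linked median was -0.05, and 2 genes were higher and 4 lower. Among the 8 male embryos the median was -0.06, with 2 higher and 7 lower. The adjusted count over all genes was 0 of 12195 with sex in the fit and 0 of 13296 among males, with 156 and 208 genes under an unadjusted p of 0.05 by edgeR. Without the 4 Ovgp1-rich KO embryos, edgeR called 0 of 11908 genes, with 409 under an unadjusted p of 0.05.

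The genes around Ehmt2 were examined separately because the genotypes differ there by inheritance, and alleles linked to the mutant copy travel with it. Within 5 Mb of Ehmt2 on chromosome 17, 4 of 159 tested genes (2.52%) had an unadjusted p under 0.05, 3 higher in M/Z and 1 lower, against 2.21% of all genes. The median difference there was 0.003 on the log2 scale. In the window of 10 Mb it was 7 of 275 genes (2.55%), and on the rest of the chromosome 13 of 343 (3.79%). The 4 genes were Wdr4, 3.38 Mb from Ehmt2, the DNA damage mediator Mdc1 (0.83 ± 0.32, SE, log2), the zinc finger gene Zfp101 (1.17 ± 0.48) and the class I antigen gene H2-K1 (-1.74 ± 0.67). H2-K1 was at 6.13 to 21.2 CPM in M/Z and 3.77 to 95.7 CPM in M/+, highest in M/+ embryo 3, and may share reads with related class I genes. Its difference was -0.59 (unadjusted p = 0.487) without the Ovgp1-rich embryos, and that of Zfp101 was 0.57 (unadjusted p = 0.275) with sex in the fit. Mut lies on the same chromosome, 6.02 Mb from Ehmt2.

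The next question was whether genes that respond to the maternal loss sat nearer to the controls in M/+. Pooling both zygotic genotypes, 1099 of 11754 genes (9.35%) differed between the 10 KO and the 9 control embryos by edgeR, 514 upregulated and 585 downregulated. Against the same controls, M/Z embryos differed in 579 of 13718 genes (4.22%), 337 up and 242 down, and M/+ embryos in 235 (1.71%), 145 up and 90 down. The controls are shared between these counts, and a larger count in M/Z than in M/+ is not a test of their difference. The M/+ count moved most with single embryos, from 40 without M/+ embryo 3 and 66 without M/+ embryo 2 to 668 without Cntr +/- embryo 10. Without the 5 Ovgp1-rich embryos it was 16, and the M/Z count was 245.

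Of the 1099 genes, 1091 were tested between M/Z and M/+, and 0 were called. The pooled contrast chose them and can miss genes that returned in M/+, so their levels against controls and their return are a description. Upregulated genes had a median log2 change against controls of 1.08 in M/Z and 0.91 in M/+, and downregulated genes of -1.29 in M/Z and -1.21 in M/+. The return, defined as the M/+ shift towards controls, had a median of 0.11 on the log2 scale, against a median absolute maternal change of 1.11. It was 0.10 for upregulated and 0.12 for downregulated genes. With an embryo left out this median ran from 0.02 without M/+ embryo 10 and 0.05 without M/+ embryo 6 to 0.18 without M/+ embryo 3. An unadjusted p under 0.05 was reached by 32 of the 1091 genes (2.93%, beside 2.21% of all genes), with M/+ nearer the controls in 27 and M/Z nearer in 5. That split depended on single embryos, with 60 and 4 genes without M/+ embryo 3 and 10 and 3 without M/Z embryo 9. Together these were 6.43% of 995 and 1.45% of 897 genes, beside 399 of 12678 and 195 of 12806 over all genes. With sex as a covariate it was 8 and 3, and among males 9 and 2. Together these were 1.01% of 1091 and 1.01% of 1093 genes, beside 156 of 12195 and 208 of 13296 over all genes. Without the Ovgp1-rich embryos the split was 32 and 2 of 456 genes (7.46% together), beside 409 of 11908 over all genes. The median return was then 0.24.

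Gnb1, a beta subunit of heterotrimeric G proteins, was the gene with M/+ nearer controls of smallest p. It was at 37.1, 29.8, 25.4, 32.1 and 29.6 CPM in M/Z embryos 1, 4, 5, 7 and 9, at 40, 58.3, 59.9, 53.03 and 98.9 CPM in M/+ embryos 2, 3, 6, 8 and 10, and at 101 to 338 CPM in controls. The M/Z, M/+ and control ranges did not overlap, and M/+ lay between. The log2 difference M/Z minus M/+ was -1.01 ± 0.30 (SE), with an unadjusted p of 0.0049 and an adjusted p of 0.9997 by edgeR. Each genotype on its own fell below controls, by -2.40 with an adjusted p of 0.000222 in M/Z and by -1.42 with an adjusted p of 0.0172 in M/+.

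Id3, an inhibitor of basic helix-loop-helix transcription factors, was ordered the same way with overlap. It was at 20.6, 11.1, 5.97, 11.3 and 3.43 CPM in M/Z, at 26.2, 54.8, 16.3, 31.4 and 32.7 CPM in M/+, and at 36.5 to 1021 CPM in controls. M/Z embryo 1 was above M/+ embryo 6, and M/+ embryo 3 was within the control range. The difference was -1.62 ± 0.51 (SE, log2, unadjusted p = 0.00635). The 14-3-3 protein gene Ywhaz (42.5 to 60.4 against 68.9 to 110.3 CPM) and the semaphorin receptor gene Plxnb2 (2.04 to 12.2 against 12.8 to 37.9 CPM) did not overlap between genotypes, with unadjusted p-values of 0.00746 and 0.0131.

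In the opposite direction, M/Z was nearer the controls for Ddx3x, an X-linked RNA helicase, at 276 to 443 CPM in M/Z, 143 to 323 CPM in M/+ and 236 to 1353 CPM in controls. The cytokinesis gene Cep55, the endoplasmic reticulum chaperone gene Hsp90b1 and the chromatin organiser Satb1 were the next, with log2 differences of -0.97, -0.63 and 0.57 and unadjusted p-values of 0.0384, 0.0455 and 0.0468. The M/Z and M/+ ranges of all 4 overlapped.

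The whole profile was placed on a line from controls to KO embryos, computed over all genes on log2 CPM without the embryo being placed, so that 0 is the mean of the controls and 1 the mean of the KO embryos on that line. Placed in this way, the controls averaged 0.267 ± 0.193 (SD, n = 9). M/Z embryos 1, 4, 5, 7 and 9 stood at 0.951, 0.925, 0.933, 0.668 and 0.850. M/+ embryos 2, 3, 6, 8 and 10 stood at 0.970, 0.915, 0.703, 0.773 and 0.549. The groups overlapped, with the highest position of all in an M/+ embryo. Controls stood between 0.0254 and 0.322, except for Cntr +/- embryo 10 at 0.721, which is within the range of the KO embryos and holds 388 CPM of oviduct markers.

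The mean position was 0.865 ± 0.117 (SD, n = 5) in M/Z and 0.782 ± 0.169 (SD, n = 5) in M/+. The difference was 0.0833 towards controls in M/+, with a 95% interval of -0.133 to 0.303 and p = 0.389 by the two-sided exact permutation test (0.544 after BH adjustment over the 7 tests). On this line the M/Z mean was 0.598 from the mean of the controls, a distance taken here as a complete return. The observed shift was 13.9% of that distance, and the interval reached from -22.3% to 50.7%. Both M/Z and M/+ embryos set the KO end, so a complete return would itself have changed the line. The shares hold for the line as measured and leave out the error of the 0.598. On these terms a return above about the upper share lies outside the interval, and a smaller one could have been missed. With the 500 most variable genes the difference was -0.0014, and without the Ovgp1-rich embryos it was 0.139 with exact p = 0.2.

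Genes called between KO and controls, a set that can miss genes returned in M/+, were also placed alone. Their position difference was 0.149 with an interval of -0.0951 to 0.377 and exact p = 0.151. That is 18.9% of a complete return taken in the same way, with an upper bound of 47.7%. Upregulated genes alone gave 0.195, with an interval of -0.0387 to 0.434 and p = 0.0794 by the exact permutation test (BH-adjusted p = 0.278), and an upper bound of 54.3%. Without M/+ embryo 3 this difference was 0.258 with exact p = 0.0238. Downregulated genes alone gave 0.120, with an interval of -0.107 to 0.344, exact p = 0.246 and an upper bound of 43.2%. Without the Ovgp1-rich embryos the differences were 0.310 for upregulated and 0.265 for downregulated genes, each with an exact p of 0.1, the smallest that 3 against 3 embryos allow. In each of these the M/+ mean lay on the control side, and no interval over the 10 embryos excluded 0.

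**Figure D4:**
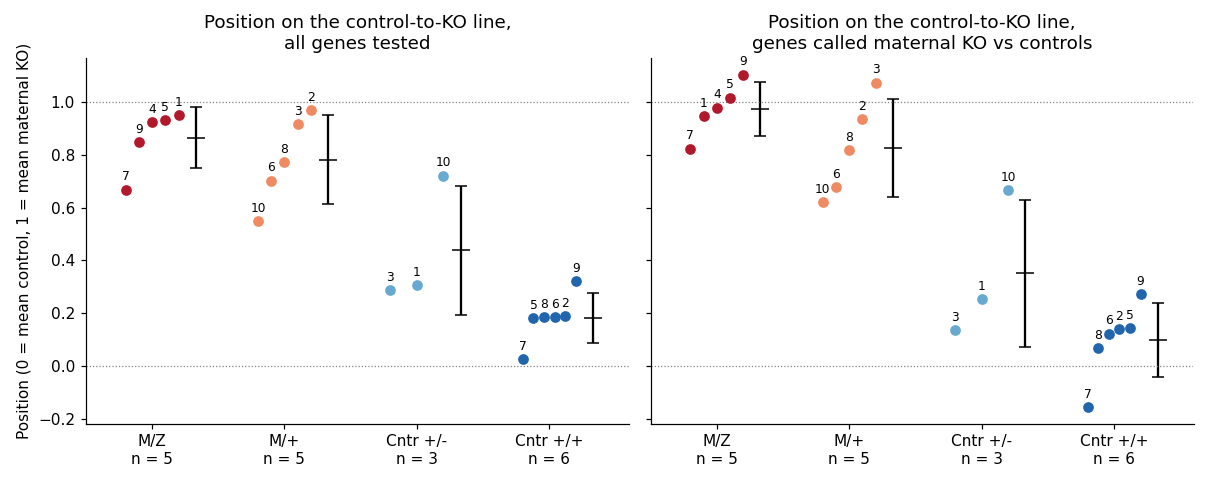
Position of each embryo (points, with group means and SDs) on the line from the control mean (0) to the KO mean (1), over all genes on the left and over genes called between KO and controls on the right. On the left, M/Z embryos lie between 0.668 and 0.951 and M/+ embryos between 0.549 and 0.970, while all controls but Cntr +/- embryo 10 (0.721) lie at or below 0.322.

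Other measures of the whole profile did not separate the genotypes. The Euclidean distance to the mean control, in log2 CPM over all genes, was 157 ± 13.1 (SD, n = 5) in M/Z and 173 ± 41.3 (SD, n = 5) in M/+, a difference of -16.0 with exact p = 0.516. Controls were 169.5 ± 14 (SD, n = 9) from the mean of the other controls, so this distance did not set KO embryos apart from controls either. Zygotic genotype took up 9.86% of the variance among the 10 embryos (permutational multivariate analysis of variance, exact p = 0.865), and 19.3% among the 6 embryos that are not Ovgp1-rich (exact p = 0.7). Any division into 2 groups takes up some variance, and more of it where embryos are fewer. The exact p is the fraction of divisions that took up at least as much. Pairs of embryos were 201 apart on average within a genotype (20 pairs) and 198 between (25 pairs). The nearest neighbour among the 10 KO embryos was of the same genotype for 4 of 5 M/Z and 1 of 5 M/+ embryos. The mean distance of an embryo to its group mean was 113 in M/Z and 139.6 in M/+ (difference -26.6, exact p = 0.310), and the difference was -5.00 without M/+ embryo 3 and -2.46 without the Ovgp1-rich embryos.

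Gene groups of this stage were described by their counts. Processing of rRNA, which makes ribosomes, was the largest of the lists and the one with most genes changed against controls. Of 94 genes, 39 rose and 2 fell in the pooled KO embryos, 27 rose and 1 fell in M/Z, and 14 rose and 0 fell in M/+, by edgeR with the same controls in each. Over all genes tested in those fits 9.35%, 4.22% and 1.71% were called in either direction. The median log2 change against controls was 0.58 in M/Z and 0.41 in M/+, beside -0.06 and -0.01 over all genes. Between the genotypes 71 of the 94 differences were positive, where 5686 of 12195 genes (46.6%) were positive over all. The median was 0.12, beside -0.04 over all genes, and 1 gene (Nol6, a small-subunit processing factor, -0.95 ± 0.35, SE, log2) had an unadjusted p under 0.05. Exosc2, a subunit of the RNA exosome, was at 81.0 to 128 CPM in M/Z, 27.0 to 94.3 CPM in M/+ and 8.00 to 47.8 CPM in controls.

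Of 15 pluripotency genes, 3 fell below controls in M/Z and 3 in M/+ by the adjusted test, where 4.22% and 1.71% of all genes were called in either direction. The median log2 change of the 15 was -0.97 in M/Z and -1.09 in M/+. Sall4, a zinc finger factor of the early embryo, was at 251 to 379.5 CPM in M/Z and 264 to 385 CPM in M/+, and controls were at 439 to 1403 CPM. All 10 KO embryos were below all controls, and the difference between the genotypes was -0.19 ± 0.20 (SE, log2). Nanog was at 11.4 to 52.7 CPM in M/Z and 4.76 to 40.6 CPM in M/+, with an unadjusted p of 0.133. The 7 primitive endoderm genes had medians of -1.46 and -1.50 against controls, and 1 of them fell in each genotype. Neither list held a gene with an unadjusted p under 0.05 between M/Z and M/+.

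The 9 trophectoderm genes had a median difference of -0.34 between the genotypes, with 3 of 9 positive, where 46.6% of all genes were positive. The keratin genes Krt18 and Krt8 were at -1.55 and -1.63 (unadjusted p = 0.0603 and 0.123 by edgeR). Both were highest of the KO embryos in M/+ embryo 3, the embryo with the most Ovgp1, at 94.99 and 39.1 CPM. Without the Ovgp1-rich embryos Krt8 was at -0.39 (unadjusted p = 0.777 by edgeR) and Krt18 at -1.41 (unadjusted p = 0.189). With an embryo left out, Krt8 ran from -1.93 to -0.12 and Krt18 from -1.84 to -0.85. Tfap2c, a trophectoderm transcription factor, had the only unadjusted p under 0.05 of the list, in the other direction. Its level was 288, 417, 349, 470.3 and 616 CPM in M/Z embryos 1, 4, 5, 7 and 9 and 338, 265, 288, 295 and 280.1 CPM in M/+ embryos 2, 3, 6, 8 and 10, and M/Z embryo 1 was within the M/+ range. The difference was 0.55 ± 0.22 (SE, log2, unadjusted p = 0.0277), and 0.33 with sex in the fit (unadjusted p = 0.197). At an unadjusted p under 0.05, 0.763% of all genes were higher in M/Z. Against controls Tfap2c rose in M/Z by 1.02 with an adjusted p of 0.0109 by edgeR, and was 0.45 higher in M/+ with an adjusted p of 0.34. The 10 general markers of preimplantation embryos, which include Tfap2c, had medians of 0.17 in M/Z and 0.12 in M/+ against controls, and no other of them had an unadjusted p under 0.05 between the genotypes.

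Of 13 p53 targets and stress genes, 2 were lower in M/Z at an unadjusted p under 0.05, Ccng1 and Phlda3, both induced by p53. Over all genes tested, 1.45% were lower at that limit. Ccng1 was at 7.32, 16.6, 4.19, 17.4 and 8.51 CPM in M/Z and 10.1, 42.5, 64.1, 31.2 and 27.4 CPM in M/+, so only M/+ embryo 2 fell among the M/Z values. Its difference was -1.69 ± 0.53 (SE, log2, unadjusted p = 0.00659). Phlda3 was at 0.243 to 1.45 CPM in M/Z and 0.328 to 18.3 CPM in M/+, near the floor in M/Z. Neither genotype differed from controls in Ccng1 by edgeR.

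Among 7 genes of the 2-cell stage that were tested, Usp17lb was the one with an unadjusted p under 0.05. At that limit 0.763% of all genes were higher in M/Z. Usp17lb was at 37.5, 32.4, 84.8, 31.1 and 0.0659 CPM in M/Z and 2.46, 0.121, 0.0591, 11.96 and 4.35 CPM in M/+, and at 0 to 0.115 CPM in controls. The M/Z embryos were above all M/+ embryos except for embryo 9, and the edgeR difference was 3.27 ± 1.26 (SE, log2, unadjusted p = 0.0205). Without the Ovgp1-rich embryos this difference was 2.79 (unadjusted p = 0.127 by edgeR). Usp17lb belongs to a family of near-identical copies, so its counts may include reads of other members. The median of the 7 genes was 0.41 between the genotypes.

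Of 16 oocyte transcripts, Khdc3, part of the subcortical maternal complex, was lower in M/Z at 0.725 to 6.86 CPM against 1.23 to 47.6 CPM in M/+ and 13.2 to 211 CPM in controls. Its difference was -2.33 ± 0.87 (SE, log2, unadjusted p = 0.018), and it ranged from -2.85 to -1.29 with an embryo left out. The 15 germline genes had a median difference of -0.25 with 6 positive, where 46.6% of all genes were positive. Their only gene with an unadjusted p under 0.05, the germ granule protein gene Asz1, was higher in M/Z at 21.0 to 65.8 CPM against 6.03 to 46.8 CPM (unadjusted p = 0.044). Of 26 mitotic and cell cycle genes, the cyclin gene Ccne1 was lower in M/Z at 112 to 244 CPM against 86.1 to 570.4 CPM (unadjusted p = 0.0439). Its difference of -0.85 ran from -1.09 to -0.49 with an embryo left out, and was -0.76 with sex in the fit (unadjusted p = 0.13). Adjusted p-values by edgeR were 0.9997 for each. At an unadjusted p under 0.05, 0.763% of all genes were higher and 1.45% lower in M/Z.

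**Figure D5:**
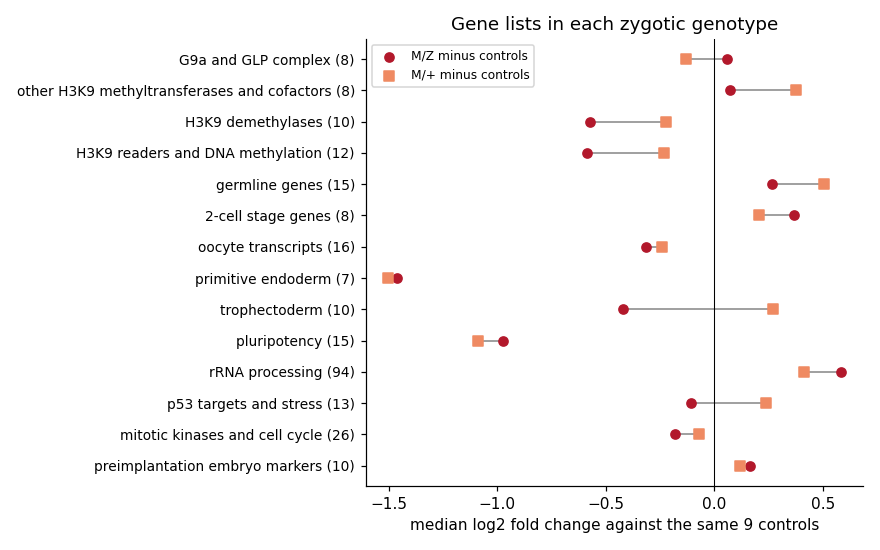
For each gene list, the median log2 change against the 9 controls in M/Z and in M/+, with the number of genes tested in parentheses. In rRNA processing the medians are 0.58 in M/Z and 0.41 in M/+, and in pluripotency -0.97 and -1.09.

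In embryos from control mothers, the genotypes Cntr +/- and Cntr +/+ gave a comparison of zygotic copies with maternal G9a present. By edgeR 0 of 12646 genes (0.0%) were called, with 572 at an unadjusted p under 0.05, and DESeq2 called 107. With 3 embryos against 6, and with Cntr +/- embryo 10 standing apart, this is a small reference.

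The size of effect that the 5 and 5 embryos could show was set by the level of a gene. The 95% interval of a gene's difference extended by a median of 1.16 on the log2 scale to either side, a 2.24-fold change. It was within a 2-fold change in both directions for 3258 of 12195 genes (26.7%) and within a 4-fold change for 7483 (61.4%). In the most abundant 3049 genes, above 66.1 CPM on average, the median half-width was 0.61 (1.52-fold) and 2366 genes (77.6%) lay within a 2-fold change. In the least abundant 3049 genes, at 0.449 to 4.53 CPM, the half-width was 2.67. A gene changing alone would have needed an unadjusted p of 4.1e-06 to be called, which corresponds to a median of 3.91 on the log2 scale (15.0-fold), and 2.03 in the most abundant genes. These sizes and intervals come from the edgeR fit, whose p-values ran larger than evenly spread ones would.

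The genes called for maternal loss were measured more closely, with a median half-width of 0.74 on the log2 scale (1.67-fold). For 559 of 1091 (51.2%), the interval lay within a 2-fold change. A return as large as the gene's own maternal change was outside the interval for 795 of 1091 genes (72.9%), 407 of 514 upregulated (79.2%) and 388 of 577 downregulated (67.2%). For the remaining genes the interval reached a return of that size or more. For some of these it excluded 0 as well, as for Ywhaz (-1.32 to -0.25, maternal change -0.99) and Plxnb2 (-2.80 to -0.39, maternal change -1.71). This maternal change is that of the pooled KO embryos, whereas the complete return on the profile line was measured from M/Z to controls. The pooled contrast also chose the genes. A gene fully returned in M/+ would show a smaller pooled change and could miss the call. These shares therefore describe the called genes only and do not bound how many genes returned.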

How the data were processed

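RNA of 19 single 8C embryos was analysed. Counts of control embryo 4 were not analysed here. The authors deposited raw counts per Ensembl gene for each embryo, without normalization, as whole numbers for 34937 genes, of which 34599 have a symbol. Per the file headers they were made with featureCounts 1.5.0 on exons of Ensembl release 82 (GRCm38), with an overlap of at least 10 bases, each read counted for all genes it touched, multi-mapping reads kept and no strand option, so paralogues and overlapping genes can share reads. The methods describe Tophat2 and SeqMonk for gene expression, and DESeq2. The cDNA was amplified with a 3′ bias and read as single ends, on a sequencer that the labels and the methods name differently.

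From these counts, edgeR 4.0.16 (R 4.3.3) filtered out genes of low counts and applied TMM normalization and the quasi-likelihood test without covariates, with Benjamini-Hochberg adjustment at 0.05. M/Z and M/+ were fitted alone, and a second fit of all 19 embryos compared each with controls. CPM used TMM-scaled totals, and profiles were log2 CPM (prior count of 2). Single values were compared by two-sided exact permutation tests, whose inversion gave 95% intervals. Replicates are separate embryos of a genotype. The scripts were tested on simulated data.

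The members and lists were chosen with earlier results of these data known. Genes were named by a rule: Ehmt2 and Ehmt1, the 6 of smallest p in each direction above a mean of 5 CPM, the 3 of smallest DESeq2 adjusted p in each direction, the 4 KO genes of smallest p with either genotype nearer the controls, the 4 of smallest p within 5 Mb of Ehmt2, and up to 3 per list. Sall4 and Ovgp1 fall under the last part, and Muc1 and Wt1 are list members.

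The alternatives were RLE factors, other filters, prior counts and pseudocounts, DESeq2 1.42.0, limma-voom (limma 3.58.1), sex as a covariate, the embryo number as a block, and each embryo left out. The following were chosen after seeing the data: sex by a limit of 10 CPM, male embryos only, the removal of 5 embryos above 300 CPM of oviduct markers, DESeq2 on the genes edgeR tested, and the removal of Cntr +/- embryo 10.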

Additional observations from a re-analysis of the deposited data

Results flagged for a closer look

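In 9 of 89 groups of values examined, the highest or the lowest embryo stood apart from the rest of its group by Dixon's criterion at 95%. Chance meets it in about 1 in 20 groups of normally distributed values. CPM need not be so distributed, so the number that chance would flag here is not known. Of these, 3 belong to Cntr +/- embryo 10. Its position on the line from controls to KO embryos was 0.721, with the other controls between 0.0254 and 0.322. Its oviduct marker sum was 388 CPM, against 0.0904 to 29.7 CPM in the other controls. Its level of the chaperone gene Hsp90b1 was 147 CPM, against 11.9 to 41.3 CPM.

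Among the KO embryos, M/+ embryo 10 was far above the other M/+ embryos for Klf10, at 164 CPM against 9.99 to 53.4 CPM. M/Z embryo 5 was below the other M/Z embryos for Cep55, at 6.36 CPM against 12.4 to 14.6 CPM. Cep55 was also high in Cntr +/+ embryo 8, at 17.3 CPM against 0.452 to 6.07 CPM in the other controls.

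Cntr +/+ embryo 7 was the highest control for Gnb1, at 338 CPM against 101 to 192 CPM, and for Id3, at 1021 CPM against 36.5 to 370 CPM. For both genes every control was above every M/Z embryo. Bex1 was at 147 CPM in Cntr +/- embryo 3, against 0.181 to 69.6 CPM in the other controls.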

How the results depend on the processing

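The absence of adjusted calls between M/Z and M/+ by edgeR held with each of the 10 embryos left out (0 to 0 genes) and under the other edgeR and limma-voom settings run, and DESeq2 gave 15 calls, or 3 on the genes edgeR tested. The KO against control count was 699 with a replicate block of embryo numbers, 2038 by DESeq2, 465 without the Ovgp1-rich embryos and 884 to 1262 with an embryo left out. For M/+ against controls the count was 421 with at least 10 counts per embryo, 0 with the replicate block, 905 by DESeq2, 16 without the Ovgp1-rich embryos and 40 to 668 with an embryo left out. For M/Z against controls it was 27 with the replicate block, 1259 by DESeq2, 245 without the Ovgp1-rich embryos and 262 to 891 with an embryo left out. Cntr +/- against Cntr +/+ gave 107 by DESeq2 and 0 to 1 with an embryo left out. M/Z and M/+ share no embryo number. For control and KO embryos of the same number, deviations from the group means correlated by -0.156 to 0.0856 over 9 pairs. Of the controls, 0 correlated best with their own number. What the numbers stand for is not given in the labels, and whether they pair embryos was not tested.

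The median half-width was 0.83 with at least 10 counts, 1.25 with sex as planned, 1.13 by limma-voom, 1.40 with sex called at 10 CPM, 1.58 among males and 1.40 without the Ovgp1-rich embryos. The position difference was -0.0014 with the 500 most variable genes and 0.013 to 0.130 with an embryo left out. Leaving out an embryo gave 0.122 to 0.258 for upregulated and 0.0735 to 0.187 for downregulated genes, and leaving out the Ovgp1-rich embryos gave 0.139 over all, 0.310 over upregulated and 0.265 over downregulated genes. The distance to controls differed by 7.88 without the Ovgp1-rich embryos and by -25.7 to 0.137 with an embryo left out, the genotype share of variance was 10.4% to 12.4%, or 19.3% without the Ovgp1-rich embryos, the spread difference -36.6 to -5.00, or -2.46 without them, and the Ehmt2 difference -0.67 to -0.41. KO genes at an unadjusted p under 0.05 with M/+ nearer controls numbered 8 with sex at 10 CPM, 9 among males and 10 to 60 with an embryo left out, and with M/Z nearer 3, 2, and 1 to 8. Without the Ovgp1-rich embryos they numbered 32 and 2 of 456, where 409 of 11908 genes were under 0.05 over all. The cause was not tested.

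Of 76 single genes, 56 kept their sign under every setting run. The replicate block, in the fit of all 19 embryos, turned Bex1 (-1.27), Cep55 (1.04), Hsp90b1 (0.47), Suv39h2 (1.29), Kdm7a (0.19), Kdm4c (0.10), Uhrf2 (1.53), Mov10l1 (1.22), Tdpoz1 (0.59), Sox17 (1.29), Krt8 (0.79), Cdh1 (0.21), Hbb-bs (1.23), Eif2s3y (0.0682), Ddx3y (1.07) and Xist (-0.64), on the log2 scale. Without the Ovgp1-rich embryos Prdm2 (0.26), Tdpoz1 (1.05), Dppa4 (-0.0315) and Hbb-bs (0.79) turned, and with limma-voom Tdpoz1 (0.27), Krt8 (0.27), Foxj1 (0.15) and Hbb-bs (0.59). Hbb-bs was 0.12 with sex at 10 CPM and 0.13 among males. With an embryo left out, Tdpoz1 ranged from -0.57 to 0.14, Sox17 from -1.50 to 0.00631, Dppa4 from -0.00095 to 0.29, Hbb-bs from -0.83 to 0.32 and Tyrobp from -0.48 to 1.68. At these depths genes under about 5 CPM were measured only to several-fold.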
